A study of Mus musculus with 5 samples.

Results

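Tubule injury and repair markers were followed in whole embryonic mouse kidneys in which nephron progenitors had been given constitutive Notch1 activity. The set held 9 genes, chosen by name as markers of the injured or repairing tubule: Vcam1, Icam1, Cd44, Clu, Spp1, Lcn2, Havcr1, Cd24a and Prom1. Each is a row of both deposited matrices, out of 32793 gene symbols. Of the 9, 8 had enough counts to be tested; Havcr1 did not and is given by its counts.

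RNA came from kidneys of embryos at embryonic day 15.5 and was sequenced in bulk in 5 libraries. All 5 carried the RosaN1ICD∆PEST allele, from which Cre recombinase releases an activated Notch1 lacking its PEST degradation domain. The 2 NICD_mut libraries also carried Six2TGC/+, a driver that makes Cre in Six2-expressing nephron progenitors; the 3 NICD_wt libraries were littermates without Cre. No group carried the driver without activated Notch1, so what the driver does and what activated Notch1 does cannot be told apart. Nothing in the labels ties a library to its own animal; the tests weigh differences against the spread between libraries, part of which may be technical. The driver targets the progenitors, while the RNA is from the whole organ.

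When an adult tubule is damaged, surviving epithelial cells lose part of their differentiated program and switch on secreted proteins and surface receptors that are rare in healthy tubule. Havcr1 (kidney injury molecule KIM-1) and Lcn2 (lipocalin NGAL) are read in urine as early signs of such damage, Spp1 and Clu are secreted by stressed tubule, and Vcam1 marks proximal cells that fail to recover. Cd24a and Prom1 (CD133) are surface proteins of parietal and scattered tubular cells linked to repair. In the developing kidney several of these genes are also part of normal epithelial formation, and Vcam1, Icam1 and Cd44 are made by endothelial, stromal and blood cells as well.

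Library totals ran from 17361823 to 21356447 counts. Notch1, the gene of the transgene, was at 127, 142 and 120 CPM (counts scaled to library size and composition) in the NICD_wt libraries and at 288 and 324 CPM in NICD_mut 1 and 2, so it was higher in both libraries labelled NICD_mut. These counts do not separate the transgene from the gene's own transcripts. The NICD_mut libraries differed from each other in tissue content: the summed level of 8 skeletal muscle genes was 3366 CPM in NICD_mut 1 and 18.4 CPM in NICD_mut 2, against 5.94 to 146 CPM in NICD_wt, the last in NICD_wt 1. Summed levels of 8 stromal genes were 11615 and 5842 CPM in NICD_mut 1 and 2, against 2994 to 3781 CPM in NICD_wt. Most of that sum was collagen, Col1a1 (4562 and 1815 CPM) and Col3a1 (5325 and 2625 CPM), whereas Pdgfrb (316 and 443 CPM), Foxd1 (96.9 and 105 CPM) and Tcf21 (155 and 166 CPM) were lower in NICD_mut 1 than in NICD_mut 2. Values are therefore given for NICD_mut 1 and NICD_mut 2 separately throughout.

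The injury markers moved in both directions. Vcam1, Icam1 and Clu rose in NICD_mut, Lcn2, Cd24a and Prom1 fell, and Cd44 and Spp1 did not pass the test. Thus 6 of 8 tested markers passed the edgeR quasi-likelihood test at a Benjamini-Hochberg adjusted p (adjusted for the number of genes tested) of 0.05, where 47.7% of all 15885 tested genes passed. Of all tested genes, 23% rose and 24.8% fell. The groups did not overlap for 7 of the 8 markers, all but Spp1, where 67.2% of tested genes did not overlap. Of the 7, 4 were higher and 3 lower in NICD_mut, against 32.9% and 34.2% of tested genes. The median log2 fold change, NICD_mut minus NICD_wt, was 0.91 over the 8 markers and 0.01 over all tested genes; without regard to sign the medians were 1.16 and 0.38. Since 47.7% of genes passed, little can be read from the count of markers alone. In whole-organ RNA, fewer cells of a type cannot be told apart from less RNA per cell. Below, SE is the standard error of a log2 fold change, and genes said to have risen or fallen passed the edgeR test.

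**Figure D1:**
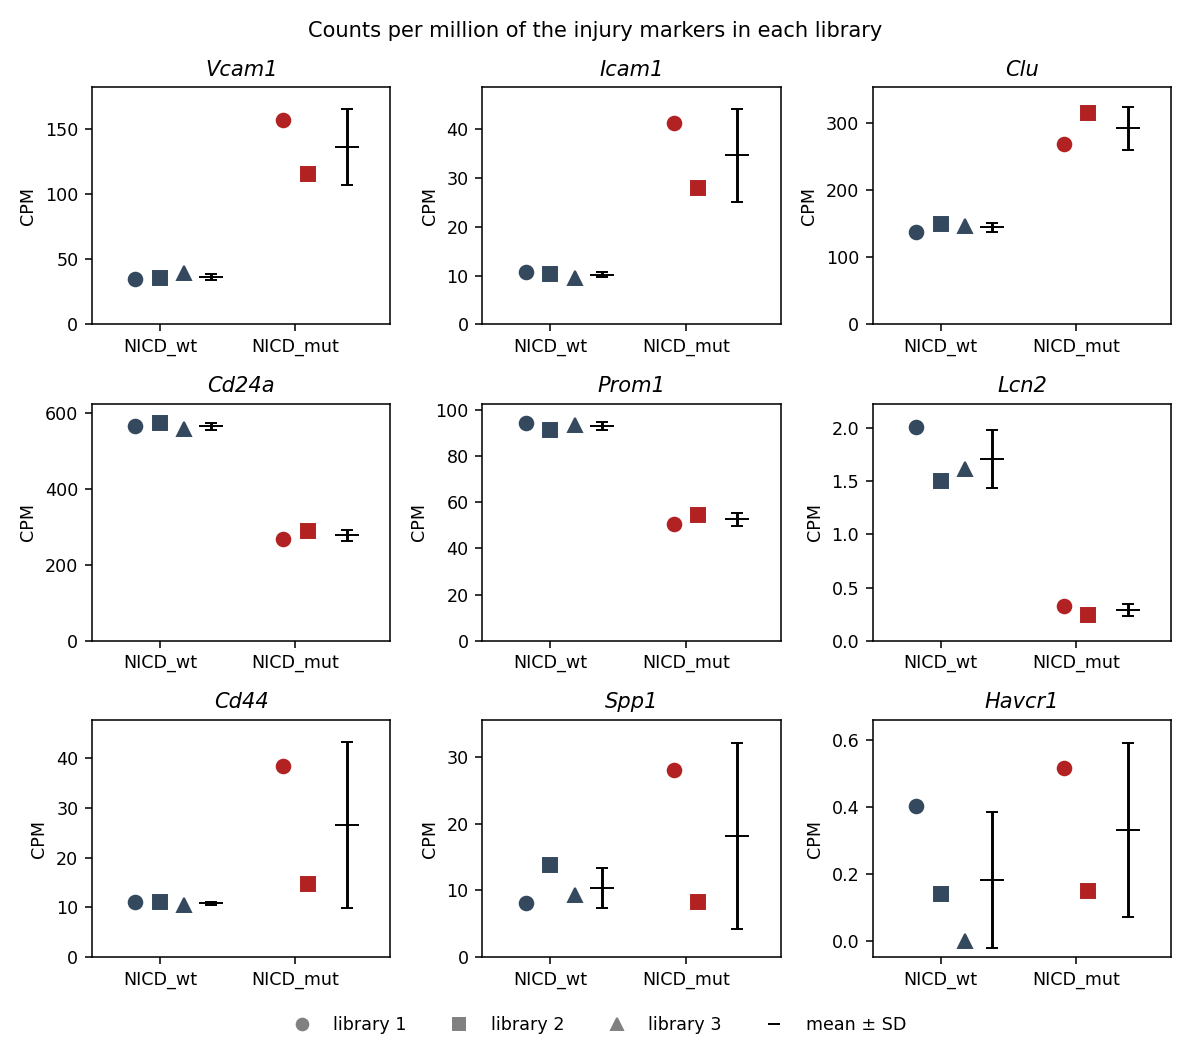
Each panel shows 1 injury marker; the vertical axis is its level in CPM, points are single libraries (shape gives the library number), and the bar is the mean ± SD of the group. Vcam1, Icam1 and Clu lie higher and Cd24a, Prom1 and Lcn2 lower in both NICD_mut libraries, while Cd44 and Spp1 are high mainly in NICD_mut 1.

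Among the adhesion receptors, Vcam1 showed the largest rise. Vcam1 is an immunoglobulin-family protein that binds the integrin α4β1 on leukocytes (gene on mm10 chromosome 3, 116109949 to 116129688, minus strand). It was at 35.1, 35.4 and 39.3 CPM in the NICD_wt libraries, at 157 CPM in NICD_mut 1 and at 116 CPM in NICD_mut 2. Both NICD_mut libraries stood far above all controls, 4.3-fold and 3.18-fold over the NICD_wt mean, while the highest and lowest controls differed 1.12-fold. The log2 fold change was 1.90 (SE 0.13; edgeR quasi-likelihood test, adjusted p = 7.71e-05), and it lay between 1.64 and 2.10 over all 16 alternative settings.

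Icam1, the related ligand of the leukocyte integrins built on Itgb2 (chromosome 9, 21015985 to 21028817, plus strand), had the same shape at a lower level. Its values were 10.7, 10.3 and 9.61 CPM in NICD_wt, 41.4 CPM in NICD_mut 1 and 28 CPM in NICD_mut 2. The NICD_mut libraries were 4.06-fold and 2.75-fold over the control mean, and the groups did not overlap. The log2 fold change was 1.77 (SE 0.16; edgeR quasi-likelihood test, adjusted p = 5.95e-05). GENCODE places antisense genes over Vcam1 and Icam1, and the strand setting of the counting is not given in the sources used here, so their reads cannot be separated. Other small genes overlap Cd44, Spp1 and Prom1.

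Cd44, the hyaluronan receptor of migrating and regenerating epithelium (chromosome 2, 102811141 to 102901665, minus strand), rested on NICD_mut 1. The controls lay within 10.5 to 11 CPM, NICD_mut 2 was at 14.7 CPM and NICD_mut 1 at 38.3 CPM. Each NICD_mut library was above every control, but NICD_mut 1 was 3.54-fold and NICD_mut 2 only 1.36-fold over the control mean. The log2 fold change of 1.29 (SE 0.43) did not pass (edgeR quasi-likelihood test, adjusted p = 0.0743). It passed without NICD_mut 1 at 0.44 (SE 0.17; edgeR quasi-likelihood test, adjusted p = 0.0461) and without NICD_mut 2 at 1.81 (SE 0.13; adjusted p = 2.02e-07), where 44.5% and 48.8% of genes passed, fits in which the lone NICD_mut library is assumed to vary like the controls. It also passed by the DESeq2 Wald test (adjusted p = 0.000701) and by limma on log2(TPM + 1) (adjusted p = 0.0466).

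Among the secreted proteins, Clu rose evenly. Clusterin, an extracellular chaperone of injured epithelium (chromosome 14, 65968483 to 65981547, plus strand), was at 137, 150 and 146 CPM in NICD_wt, 269 CPM in NICD_mut 1 and 314 CPM in NICD_mut 2. It was the only marker that rose whose level was higher in NICD_mut 2 than in NICD_mut 1. Both libraries were about as far from the controls, 1.87-fold and 2.17-fold over their mean, for a log2 fold change of 1.01 (SE 0.08; edgeR quasi-likelihood test, adjusted p = 1.92e-05).

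Spp1 was high in NICD_mut 1 alone. It encodes osteopontin, a secreted ligand of αv integrins and Cd44 (chromosome 5, 104435118 to 104441050, plus strand). Its levels were 8.16, 13.8 and 9.26 CPM in NICD_wt, 28 CPM in NICD_mut 1 and 8.34 CPM in NICD_mut 2. NICD_mut 2 lay inside the control range, and the controls themselves spread 1.69-fold, more than for any other tested marker. The log2 fold change of 0.80 (SE 0.63) did not pass (edgeR quasi-likelihood test, adjusted p = 0.37). Without NICD_mut 1 it was -0.33 (SE 0.29; adjusted p = 0.401), and without NICD_mut 2 it was 1.41 (SE 0.26; adjusted p = 0.00456).

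Lcn2 changed most in fold and rested on few counts. Lipocalin 2 binds iron-carrying siderophores (chromosome 2, 32384633 to 32388252, minus strand). It had 40, 32 and 28 counts in NICD_wt, or 2.01, 1.5 and 1.61 CPM, and 7 and 5 counts in NICD_mut 1 and 2, or 0.328 and 0.247 CPM. Both NICD_mut libraries were below all controls, by 5.2-fold and 6.92-fold from the control mean. The ratio of the pooled counts was 0.169 (95% exact counting interval 0.0846 to 0.309, counting error only), and the log2 fold change was -2.54 (SE 0.50; edgeR quasi-likelihood test, adjusted p = 0.00281). On log2(TPM + 1), which understates changes of low genes, it was -1.58.

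Havcr1, the phosphatidylserine receptor with which injured proximal cells engulf debris (chromosome 11, 46735080 to 46779578, plus strand), was hardly detected. It had 8, 3 and 0 counts in NICD_wt, 11 in NICD_mut 1 and 3 in NICD_mut 2, 25 counts in all 5 libraries together. The groups overlapped. The pooled ratio of NICD_mut to NICD_wt was 1.79, with a 95% exact counting interval of 0.756 to 4.37, so no difference was detectable at this depth. With no filter on low counts the log2 fold change was 0.82 (SE 1.18; edgeR quasi-likelihood test, adjusted p = 0.616).

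Both genes for surface proteins of parietal and progenitor-like tubular cells fell, with little spread. The parietal epithelium marker list, Cldn1, Cav1, Akap12 and Ncam1, rose in 4 of 4 genes, where 23% of all tested genes rose. Endothelial genes rose in 8 of 8, and whether the 4 genes report parietal cells in this tissue was not tested. Cd24a, a short glycosylphosphatidylinositol-anchored sialoprotein (chromosome 10, 43578284 to 43584265, plus strand), was at 564, 573 and 556 CPM in NICD_wt, 268 CPM in NICD_mut 1 and 288 CPM in NICD_mut 2. The NICD_mut libraries agreed closely, 2.1-fold and 1.96-fold below the control mean, and the log2 fold change was -1.02 (SE 0.06; edgeR quasi-likelihood test, adjusted p = 3.55e-06). Prom1, a pentaspan protein of membrane protrusions (chromosome 5, 43993620 to 44102032, minus strand), was at 94.4, 91.2 and 93.3 CPM in NICD_wt, 50.7 CPM in NICD_mut 1 and 54.5 CPM in NICD_mut 2. Its groups were as clearly apart, with a log2 fold change of -0.82 (SE 0.06; edgeR quasi-likelihood test, adjusted p = 2.2e-05). An antisense gene overlaps Prom1 too.

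**Figure D2:**
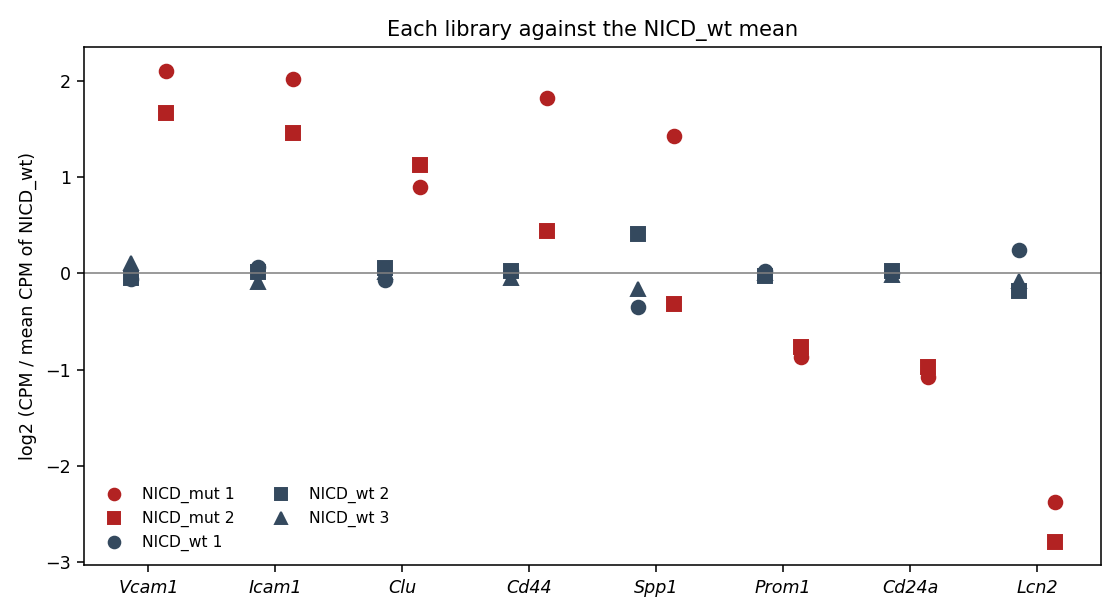
The vertical axis is the log2 ratio of a library's CPM to the mean CPM of NICD_wt for the 8 tested markers; red points are the NICD_mut and dark points the NICD_wt libraries. The NICD_mut libraries lie close together for Clu (0.90 and 1.12), Prom1 and Cd24a and far apart for Cd44 (1.83 and 0.44) and Spp1 (1.43 and -0.32).

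The gap between the NICD_mut libraries separated the markers further. NICD_mut 1 was 3.36-fold above NICD_mut 2 for Spp1 and 2.61-fold for Cd44. Among 15787 tested genes with a count in both libraries, 3.22% had a gap at least as large as that of Spp1 and 4.69% one as large as that of Cd44. The gaps of Icam1 (1.48-fold) and Vcam1 (1.35-fold) were matched or exceeded by 15.3% and 20.5% of those genes. Cd24a and Prom1 differed by a log2 ratio of -0.10 each, under the median gap of 0.17 of all those genes. The 8 skeletal muscle genes and, of the stromal genes, Col1a1, Col3a1, Dcn, Pdgfra and Meis1 were also highest in NICD_mut 1, while Pdgfrb, Foxd1 and Tcf21 were not. So was the sum of the urothelium list, 7 uroplakin and basal epithelium genes, at 80.6 CPM in NICD_mut 1 and 19.3 CPM in NICD_mut 2 against 26.3 to 39.1 CPM in NICD_wt. The part of these cell types in the gap was not tested.

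**Figure D3:**
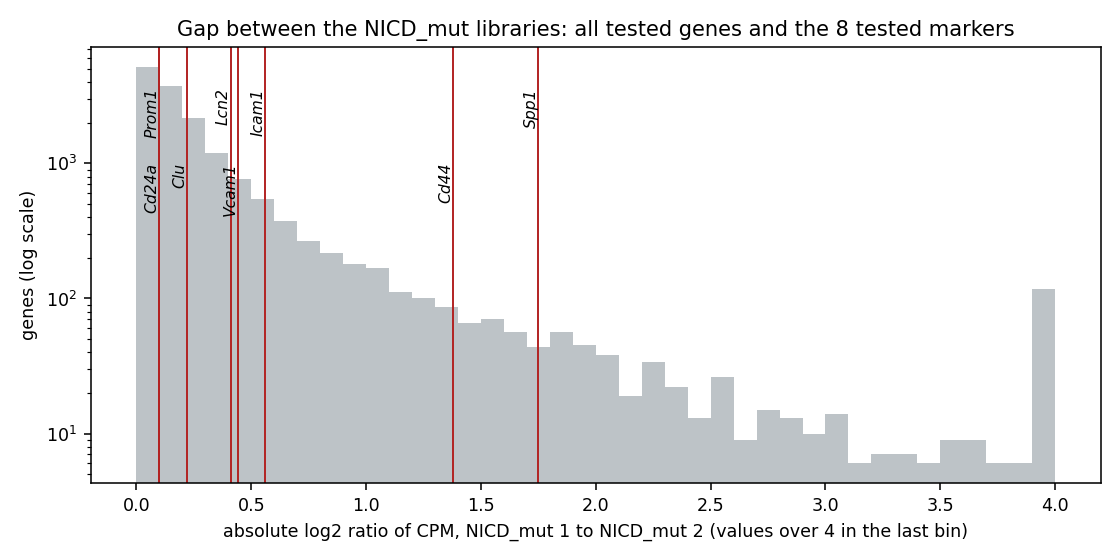
The histogram gives, for 15787 tested genes, the absolute log2 ratio of CPM between NICD_mut 1 and NICD_mut 2 (horizontal axis; the vertical axis is the number of genes on a log scale), and red lines mark the 8 tested markers. Spp1 and Cd44 lie in the tail of the distribution and Cd24a and Prom1 near its low end.

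The stretch before the transcription start is shown for Icam1, which rose in both NICD_mut libraries, and for Cd44 and Spp1, which split them. Activated Notch1 acts through the DNA-binding protein RBPJ, NF-κB is a known activator of Icam1, and AP-1 of Cd44 and Spp1. RefSeq promoters of mm10 were found for 6 of the 9 markers (not Vcam1, Clu or Cd24a). The 250 bases before the start were searched on both strands for TGGGAA (core RBPJ motif), the NF-κB consensus decamer, GGAANTTCC (an NF-κB half-site pair) and TGANTCA (AP-1); the first 3 can overlap one another. Capitals mark the matches, and each sequence is written 5′ to 3′ on the strand of its gene: Icam1 at chr9:21015690-21015939 (plus), Cd44 at chr2:102901666-102901915 (minus) and Spp1 at chr5:104434861-104435110 (plus).
Icam1: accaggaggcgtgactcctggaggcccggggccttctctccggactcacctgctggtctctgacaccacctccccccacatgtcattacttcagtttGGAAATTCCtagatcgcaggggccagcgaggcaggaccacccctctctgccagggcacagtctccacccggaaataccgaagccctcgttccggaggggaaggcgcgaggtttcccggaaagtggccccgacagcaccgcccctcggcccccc
Cd44: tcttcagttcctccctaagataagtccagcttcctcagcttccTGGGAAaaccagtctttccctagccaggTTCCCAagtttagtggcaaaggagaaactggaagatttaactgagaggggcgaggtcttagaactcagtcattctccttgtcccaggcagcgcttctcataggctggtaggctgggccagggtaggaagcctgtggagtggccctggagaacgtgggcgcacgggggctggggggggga
Spp1: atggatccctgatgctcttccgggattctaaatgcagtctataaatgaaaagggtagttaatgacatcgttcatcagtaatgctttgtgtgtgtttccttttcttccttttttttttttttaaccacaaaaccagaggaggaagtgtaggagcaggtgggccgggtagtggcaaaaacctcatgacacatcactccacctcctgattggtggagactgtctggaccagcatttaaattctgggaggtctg
Icam1 held 1 match to GGAANTTCC, whose first base lay 153 bases before the start. That motif was found in 0.813% of 32841 promoter windows of the same length, and the decamer in 0.98%. Cd44 held 2 matches to TGGGAA, at 207 and 179 bases before the start, a motif found in 21.6% of windows, and none of the other motifs, and Spp1 held 0 of the 4 motifs. Of the windows not printed, Prom1 had 1 TGGGAA match at 116 bases and 1 TGANTCA match at 88 bases before its first listed start and 1 TGANTCA match at 189 bases before another, and Lcn2 and Havcr1 had 0 of the 4. TGANTCA was found in 6.75% of windows. A match is only a match of letters in this window.

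Per length, the order of the markers changed between the groups. TPM (a level scaled by gene length and library total) put Cd24a first in NICD_wt at 559 ± 10.9 TPM (SD, n = 3), followed by Clu at 143 ± 7.47 and Prom1 at 41.5 ± 0.738. Vcam1 (18.5 ± 0.941) and Spp1 (13.9 ± 4.14) came next and overlapped, then Icam1 (6.94 ± 0.344). Lcn2 (4.44 ± 0.607) and Cd44 (4 ± 0.104) overlapped, and Havcr1 was last at 0, 0.13 and 0.38 TPM. In NICD_mut, Clu at 315 ± 26 TPM (SD, n = 2) and Cd24a at 300 ± 7.79 overlapped at the top, with Clu at 297 and 333 and Cd24a at 294 and 305 TPM in the 2 libraries. Vcam1 followed at 88.7 and 62.7 TPM. Spp1 (41.1 and 11.9), Icam1 (31.2 and 20.3) and Prom1 (25.4 and 25.9) could not be ordered beyond their spread. Cd44 (15.7 and 6.02 TPM) lay below Icam1 and Prom1 and overlapped Spp1, and Lcn2 (0.93 and 0.7 TPM) and Havcr1 (0.54 and 0.15 TPM) followed. Prom1 thus lay above Vcam1 in every control and below it in both NICD_mut libraries.

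For each tested marker, the genes with the most similar profile over the 5 libraries were found by the root mean square difference of centred log2 CPM, as a description among 13019 genes (13020 for Lcn2). Vcam1 was closest to Slc13a1 (0.0902), a sulfate transporter of the proximal tubule, and Prr33 (0.11). Icam1 was closest to the mesenchymal homeobox gene Prrx1 (0.0734) and to Pklr (0.0882), and Clu to Sh3pxd2b (0.0229) and Sesn1 (0.0243). The closest to Cd24a were Nek2 (0.0138), a mitotic kinase, and Espn (0.019), and to Prom1 Srsf2 (0.0165) and the histone chaperone Asf1b (0.0176). Lcn2 was closest to Fam46b (0.0828) and Bmp2 (0.131). The split profiles of Spp1 and Cd44 were shared by Emilin3 (0.148) and Mrgprf (0.15), and by Ehbp1l1 (0.0473) and Iffo1 (0.091).

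A wider list of 46 genes of injured and repairing tubule, covering dedifferentiation, cytokines, matrix remodelling and stress, held more genes that rose than fell. Of 41 tested, 19 rose, 2 fell and 20 did not pass, so that 51.2% passed where 47.7% of all tested genes did, with a median log2 fold change of 0.62. Vim, the intermediate filament of dedifferentiated and mesenchymal cells, rose from 490 to 536 CPM in NICD_wt to 1104 and 1114 CPM in NICD_mut 1 and 2, by 1.11 log2 (SE 0.05). Anxa2, a membrane-binding annexin, rose by 0.75 (SE 0.06). Fgb, a fibrinogen chain that injured tubule makes, was at 2.13 to 3.02 CPM in NICD_wt and at 50.8 and 60.3 CPM in NICD_mut, a rise of 4.46 (SE 0.16). Of the other fibrinogen chains, Fga did not pass at 0.45 (SE 0.44), and Fgg had 10 and 1 counts in NICD_mut against 6 to 10 in NICD_wt and was not tested. The 2 that fell were Plau, the urokinase activator, at -1.05 (SE 0.08), and Lgals3, a galectin named after its values were seen, at -1.35 (SE 0.40). Lgals3 did not pass under 7 of the alternatives, among them those without NICD_mut 2 (-1.03) or without NICD_wt 3 (-1.45). The number that fell was not stable when single libraries were left out. It was 1 without NICD_wt 3, a fit whose share over all tested genes is not given here. Sox9, a factor of tubule repair and of nephron formation, was at 26.1 and 12.7 CPM against 35.3 to 38.9 CPM and did not pass (-0.94, SE 0.33). Krt20, a keratin of injured tubule and urothelium, was at 4.03 CPM in NICD_mut 1, 0.986 CPM in NICD_mut 2 and 0.863 to 1.5 CPM in NICD_wt and did not pass either.

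Of 9 other proteins that are measured in urine or blood as signs of kidney damage, 7 were tested; 4 rose, 1 fell and 2 did not pass (71.4% passed, against 47.7% of all genes), with a median of 0.81. Igfbp7 and Timp2, the pair of a clinical test for cell cycle arrest, rose by 1.62 (SE 0.13) and 0.81 (SE 0.07). B2m, the light chain of MHC class I, rose by 1.09 (SE 0.09) and Cst3, the protease inhibitor cystatin C, by 0.45 (SE 0.10). Umod, uromodulin of the thick ascending limb, was at 7.48 to 12.4 CPM in NICD_wt and 0.375 and 0.247 CPM in NICD_mut, a log2 change of -4.85 (SE 0.40). The loop of Henle marker list, which includes Umod, fell in 6 of 6 genes, where 24.8% of all tested genes fell.

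Receptors and ligands of the injury markers moved in both directions. Of 16 tested partners, 6 rose, 4 fell and 6 did not pass (62.5% passed, against 47.7% of all genes), with a median of 0.37. Among integrin chains that bind Vcam1, Icam1 or osteopontin, Itgb1 rose by 0.39 (SE 0.05), and Itgal, Itgb2, Itgav and Itgb3, named after their values were seen, also rose. Of the same chains, Itgam, at 0.02 (SE 0.40), and Itgb5, at 0.05 (SE 0.09), did not pass. Itgb2, at 1.17 (SE 0.35), did not pass under 5 alternatives, among them those without NICD_mut 1 (1.0), without NICD_wt 2 (1.05) and without NICD_wt 3 (1.18), and Itgb3, at 1.01 (SE 0.25), did not pass under 4, among them those without NICD_mut 1 (0.53) and without NICD_wt 3 (0.89). Itga4, which pairs with Itgb1 to bind Vcam1, was at 43.4 and 32.6 CPM against 26 to 31.7 CPM and did not pass (0.36, SE 0.14), and it was 0.54 (SE 0.12) without NICD_mut 2, where it passed, and 0.13 (SE 0.13) without NICD_mut 1, where it did not. The hyaluronan synthase Has2, which makes the ligand of Cd44, changed by -1.21 (SE 0.11), from 36.3 to 38.9 CPM in NICD_wt to 17.9 and 14.7 CPM in NICD_mut. Has3 fell by 0.61 (SE 0.20) and did not pass under 8 of the alternatives; it was at -0.30 without NICD_mut 1. The lipocalin receptor Slc22a17 rose by 0.70 (SE 0.07), while Lrp8, a clusterin receptor, changed by -1.83 (SE 0.20). The other receptors Lrp2, at 0.65 (SE 0.22), and Vldlr, at -0.17 (SE 0.08), of the same list did not pass. Siglecg, a sialic acid-binding receptor of Cd24a on blood cells, also named after its values were seen, had 22, 14 and 41 counts in NICD_wt and 0 and 1 in NICD_mut, a pooled ratio of 0.0183 (95% exact counting interval 0.000458 to 0.105). The number of partners that rose was 4 without NICD_wt 3, a fit whose share over all tested genes is not given here.

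Genes of the NF-κB pathway, which drives Vcam1, Icam1 and Lcn2 in inflamed tissue, were mostly higher. Of 17 tested, 12 rose, 1 fell and 4 did not pass, 76.5% passing against 47.7% of all genes, with a median of 0.43. Relb and Nfkb2, the subunits of the non-canonical branch, rose by 1.36 (SE 0.14) and 1.26 (SE 0.09), and the feedback inhibitor Tnfaip3 rose by 1.44 (SE 0.17). Nfkbia, the inhibitor that NF-κB itself induces, was at 51.2 and 47.6 CPM against 27.4 to 32.6 CPM. Traf1, a signalling adaptor, fell by 2.47 (SE 0.24). The cytokines Tnf and Il1b had at most 4 counts in any library and were not tested. The list's median log2 ratio to the control mean was 0.39 in NICD_mut 1 and 0.48 in NICD_mut 2.

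**Figure D4:**
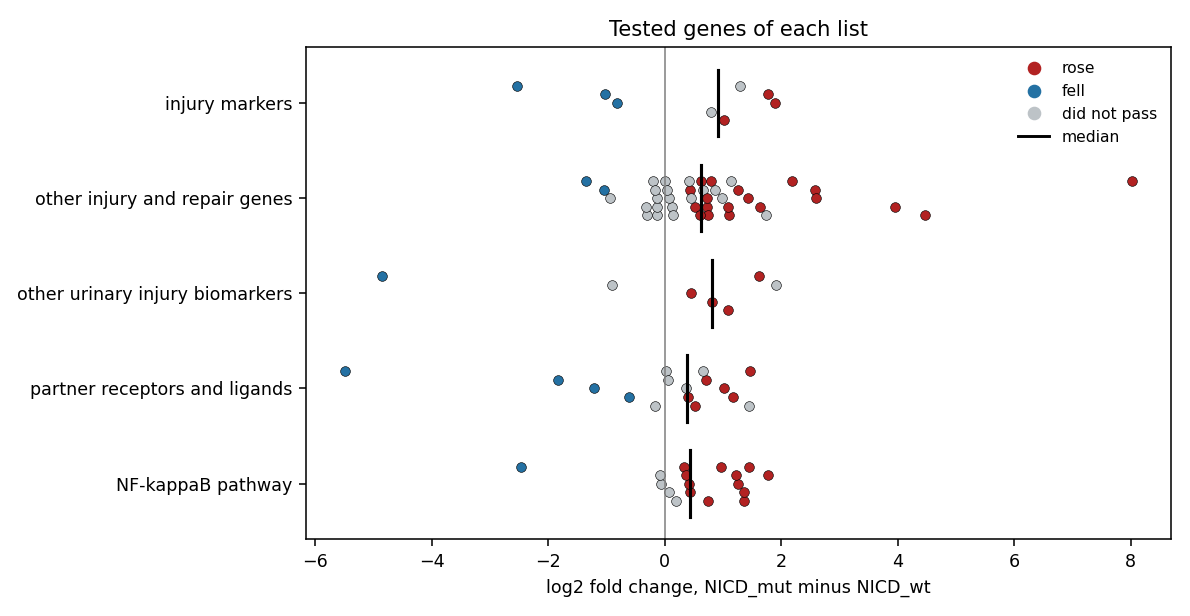
Each point is a tested gene at its log2 fold change, NICD_mut minus NICD_wt, by list; red rose, blue fell, grey did not pass, and the black line is the median. The injury markers split to both sides of 0, while the NF-κB list lies mostly to the right, with a median of 0.43.

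Marker genes of the cell types that can make these proteins also differed between the groups. For comparison, 23% of all tested genes rose and 24.8% fell. Leukocyte and macrophage genes rose in 10 of 12 cases, with summed levels of 254 and 241 CPM against 93.2 to 103 CPM. Among them the macrophage receptor Csf1r rose by 1.69 (SE 0.10), while Ptprc, which all leukocytes carry, was at 6.47 and 5.77 CPM against 6.5 to 9.12 CPM and did not pass (-0.38, SE 0.21). Red cell genes rose in 4 of 5 cases (10173 and 11334 against 4479 to 5779 CPM) and endothelial genes in 8 of 8, with 1064 and 1229 against 662 to 728 CPM. Proximal tubule genes rose in 6 of 8 cases (1474 and 1674 against 666 to 816 CPM), parietal epithelium genes in 4 of 4 (1481 and 1414 against 535 to 593 CPM), podocyte genes in 5 of 6 (1155 and 1588 against 682 to 746 CPM) and stromal genes in 4 of 8. Neutrophil genes, of a cell rich in Lcn2, were low, at 11.7 and 4.09 CPM against 3.05 to 4.73 CPM, and 1 of 5 tested rose; Ly6g had no count in NICD_mut. Nephron progenitor genes fell in 5 of 6 cases (56.1 and 27.3 against 444 to 467 CPM), ureteric and collecting duct genes in 7 of 8 (392 and 321 against 631 to 662 CPM, of which Krt8, the 1 that rose, gave 316 and 250 against 161 to 184 CPM) and loop of Henle genes in 6 of 6 (6.71 and 5.82 against 240 to 313 CPM). Slc12a1, Kcnj1 and Aqp2 had no count in NICD_mut 2 and 19, 5 and 17 counts in NICD_mut 1. Vcam1, Icam1 and Clu thus moved in the direction of the macrophage, red cell, endothelial, stromal, parietal, podocyte and proximal lists, and Lcn2, Cd24a and Prom1 in that of the progenitor, ureteric and loop of Henle lists; the part of these cell types in the changes was not tested.

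**Figure D5:**
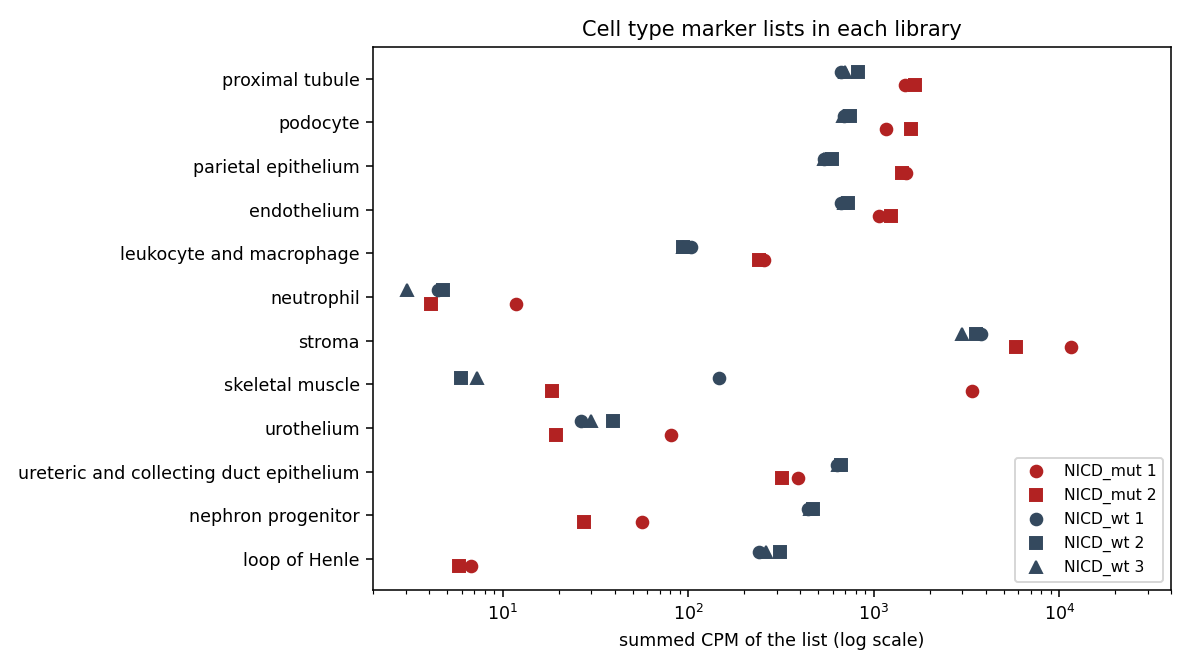
The horizontal axis is the summed CPM of each cell type marker list on a log scale, 1 point per library, red for NICD_mut and dark for NICD_wt. Leukocyte, endothelial, parietal and proximal tubule sums are higher and progenitor, ureteric and loop of Henle sums lower in both NICD_mut libraries, while muscle and urothelium sums are highest in NICD_mut 1.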

How the data were processed

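Whole-kidney RNA of 2 NICD_mut and 3 NICD_wt libraries was used. The deposited values are estimated counts, all whole numbers, and, in a second table by the authors, TPM. RSEM, Bowtie2 and mm10 were used, per the submitters' processing notes; tool versions, annotation and strandedness: not given in the sources used here. Columns were matched to samples by name. RSEM divides reads shared by similar genes by estimation.

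Low genes were removed by filterByExpr with the groups as design (count of 10, total of 15). After TMM scaling, edgeR 4.0.16 in R 4.3.3 gave robust quasi-likelihood tests, NICD_mut against NICD_wt without covariates, Benjamini-Hochberg adjusted over 15885 genes at 0.05. Each edgeR SE is the absolute log2 fold change before shrinkage, divided by the square root of the quasi-likelihood F statistic. CPM uses library totals over the genes kept by the filter, scaled by TMM. Over all genes the totals were 17361823 to 21356447 counts. Alternatives were DESeq2 size factors or library size alone, no filter or at least 50 counts in 2 libraries, DESeq2 1.42.0, limma 3.58.1 (voom; log2 TPM with pseudocounts of 1 and 0.1, filtered at 1 TPM in 2 libraries or unfiltered), a replicate block, each library left out, and NICD_mut 1 and NICD_wt 1 both left out.

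The markers, lists and alternatives were chosen with earlier results of these data known, so no list is independent evidence. Besides the markers, up to 4 passing genes per list with the smallest adjusted p were named, and the 2 genes nearest to each marker whose mean log2 CPM reached 1; others were named after their values were seen. Ccn1 and Ccn2 were read under their older symbols Cyr61 and Ctgf. Positions are 1-based, from GENCODE on mm10; promoters are from RefSeq on GRCm38.p6.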

Additional observations from a re-analysis of the deposited data

How the results depend on the processing

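Directions and calls of Vcam1, Icam1, Clu, Lcn2, Cd24a and Prom1 held under every alternative that gave a value (16 each, 15 for Lcn2, which the filter of 50 counts removes). Cd44 passed under 5 of 16. Spp1 had a log2 fold change of -0.33 without NICD_mut 1 and of -0.48 without NICD_mut 1 and NICD_wt 1, against 0.80 with all libraries. Under the same 2 exclusions Emilin3, at 0.84 with all libraries, was at -0.49 and -0.61, and Mrgprf, at 0.73, at -0.17 and -0.24. Both genes were chosen because their profiles over these 5 libraries were closest to that of Spp1, so their like shifts follow from that choice. Without NICD_mut 2 the log2 fold changes were 1.41 (Spp1), 1.5 (Emilin3) and 1.26 (Mrgprf). These exclusions leave 1 NICD_mut library, and the cause was not tested.

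Leaving out 1 library gave 3 to 5 injury markers that rose, 1 to 6 other injury genes that fell and 1 to 2 urinary biomarkers that fell. Without NICD_mut 1 and NICD_wt 1, 7 other injury genes and 2 urinary biomarkers fell. The other injury genes that fell numbered 4 by the DESeq2 Wald test and 1 by limma on log2 TPM with either pseudocount or no filter. By limma with a pseudocount of 1 or 0.1, 2 partner genes fell. In either direction, 47.7% of all tested genes passed by the DESeq2 Wald test and 47.6% by limma on log2(TPM + 1). Over all genes, limma on TPM with no filter counted 2606 that fell, against 3934. The median log2 fold change over its own tested genes was 0.11 by limma on log2(TPM + 1), against 0.01 by edgeR.

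With the replicate number as a block, 3 injury markers rose and 3 fell, as without it, 1 other injury gene fell, the genes that rose numbered 2654 over the whole table, and the genes that fell numbered 2881. NICD_wt 3 has no NICD_mut library of the same number, so it did not inform the group difference in this fit. The replicate numbers are not said to pair libraries. Deviations of same-numbered libraries from their group means correlated at 0.327 and 0.156 over 15885 genes. NICD_mut 2 and NICD_wt 3, whose numbers differ, correlated at 0.217. With only 2 NICD_mut libraries, their deviations are exact opposites, so correlations with NICD_mut 1 and with NICD_mut 2 differ only in sign. These values therefore cannot decide whether the numbers pair libraries. Counts limit Havcr1, with 25 in all, and Lcn2, with 12 in NICD_mut; the intervals cover counting error only.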

Other observations

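The chemokine gene Cxcl10, the stress gene Nupr1 and the macrophage growth factor genes Il34 and Csf1 belong to the wider injury list. They are named here after their values were seen. Other chemokine and stress genes of that list were mixed. Cxcl1 rose by 2.58 (SE 0.70), while Ccl2 (1.74, SE 0.71), Atf3 (0.41, SE 0.24) and Hmox1 (-0.20, SE 0.09) did not pass. Cxcl2 and Gdf15 were not tested. Cxcl10, a chemokine induced by interferon, had 1149 and 414 counts in NICD_mut 1 and 2 and 2, 3 and 3 counts in NICD_wt, a pooled ratio of 275 (95% exact counting interval 139 to 639, counting error only). Its log2 fold change was 8.02 (SE 0.69; edgeR quasi-likelihood test, adjusted p = 0.00113), and by limma-voom it did not pass (adjusted p = 0.137); over all 16 alternatives the adjusted p ran from 1.46e-34 to 0.137. Nupr1, a stress-induced nuclear protein, was counted 270 times in NICD_mut 1 and 503 times in NICD_mut 2, while the controls gave 44, 9 and 17. The estimate was 3.96 log2 (SE 0.73; edgeR quasi-likelihood test, adjusted p = 0.015). It did not pass without NICD_wt 3 (3.84, adjusted p = 0.0753) or with the replicate block (3.90, adjusted p = 0.17). Il34 and Csf1, the ligands of the macrophage receptor Csf1r, were at 7.32 and 7.2 CPM and at 40.7 and 36 CPM in NICD_mut, against 0.806 to 1.59 and 15.5 to 21.2 CPM in NICD_wt, and both rose (2.60, SE 0.31, and 1.08, SE 0.14).

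Cdkn1a, the cell cycle inhibitor p21, was at 116 CPM in NICD_mut 1 and 70.5 CPM in NICD_mut 2 against 27.9 to 32.5 CPM in NICD_wt, and rose by 1.63 (SE 0.24). Bcl3 and Birc3, which NF-κB induces, rose by 1.77 (SE 0.23) and 1.22 (SE 0.14). These genes of the NF-κB list were named after their values were seen. Of the 17 tested genes of that list, 12 rose, Traf1 fell (-2.47, SE 0.24) and 4 did not pass. Itgb8, an integrin chain that activates TGF-β, rose by 1.43 (SE 0.18), and the ligands Tgfb1 and Tgfb2 by 0.51 (SE 0.09) and 1.26 (SE 0.13).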
